A study of Homo sapiens with 3 samples.

Results

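The genes described here encode the proteins of the human centromere and kinetochore, 37 genes chosen by name for their role in building, anchoring or guarding the site where a chromosome meets the spindle. They were taken from 22714 gene names in the files, and 36 of them were among the 9939 names with a mean deposited FPKM of at least 1, the names compared here. FPKM are fragments relative to transcript length and library size, so that levels of different genes can be compared per length. The genes fall into 8 role groups: centromere chromatin, loading of CENP-A, the inner kinetochore, the outer kinetochore, the RZZ complex, the SKA complex, the corona, and the shugoshins. The files carry older names for some of them, and CENPC1, MLF1IP, CASC5, SGOL1 and SGOL2 are now named CENPC, CENPU, KNL1, SGO1 and SGO2.

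RNA was sequenced from TC32, an established cell line of Ewing sarcoma, a bone and soft tissue tumour driven by the fusion protein EWS-FLI1. One group was TC32 with knockdown of EWS-FLI1, one was TC32 treated with the compound YK at 3 µM for 15 hours with DMSO as its vehicle, and one was TC32 labelled as wild-type control. YK, named as in the title of its library and drawn in the plots under its full code name, is a small molecule known for keeping EWS-FLI1 from its partner DHX9, an RNA helicase. The series asks about cell cycle arrest in G2/M and about sensitivity to vincristine, a drug that acts on microtubules. Each group was 1 library. The hairpin used, the length of the knockdown, and the vehicle or hairpin of the control, if any, are not given in the labels. The knockdown library is titled shEF while its values are headed dEF, and the labels were followed.

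A centromere is marked by CENP-A, a variant of histone H3 that a dedicated chaperone deposits in each cell cycle. On this chromatin sits the inner kinetochore, called the constitutive centromere-associated network (CCAN), which is present throughout the cell cycle. In mitosis it carries the outer kinetochore, the KMN network of KNL1, MIS12 and NDC80 complexes, which grips microtubules and serves as the platform of the spindle assembly checkpoint. The genes of many of these proteins are known to be transcribed mostly in the G2 and M phases, and the promoter elements known for this are the cell cycle genes homology region (CHR) and the CCAAT box.

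Promoter windows of 4 of the genes are printed because they span the range of change in the knockdown library. By the uncentred ratio, CENPA hardly differed, HJURP and SKA3 were lower, and CENPT was higher. After the centring on level described below, CENPA and HJURP both stood at -0.56, SKA3 at -2.18 and CENPT at 0.65. The windows are RefSeq sequence of build GRCh38.p14, run 5′ to 3′ on the strand of the gene from 250 bases before the annotated start to 30 bases after it, and capitals mark the CHR, CCAAT and E2F letters. The CENPA window is chr2:26785806-26786085 on the plus strand, and the others lie on the minus strand, at chr2:233854506-233854785 for HJURP, chr13:21176523-21176802 for SKA3 and chr16:67847664-67847943 for CENPT.
CENPA: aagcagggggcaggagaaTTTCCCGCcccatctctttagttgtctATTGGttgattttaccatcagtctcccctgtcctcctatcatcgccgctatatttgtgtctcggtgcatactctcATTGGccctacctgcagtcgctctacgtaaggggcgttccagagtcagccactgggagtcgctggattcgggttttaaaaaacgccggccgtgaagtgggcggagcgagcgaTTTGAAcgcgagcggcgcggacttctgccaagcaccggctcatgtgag
HJURP: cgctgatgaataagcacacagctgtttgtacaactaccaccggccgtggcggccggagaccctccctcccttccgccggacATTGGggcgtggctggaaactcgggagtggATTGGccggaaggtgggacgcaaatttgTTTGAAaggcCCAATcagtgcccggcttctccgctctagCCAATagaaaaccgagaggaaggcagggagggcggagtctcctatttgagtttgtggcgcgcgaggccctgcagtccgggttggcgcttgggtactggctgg
SKA3: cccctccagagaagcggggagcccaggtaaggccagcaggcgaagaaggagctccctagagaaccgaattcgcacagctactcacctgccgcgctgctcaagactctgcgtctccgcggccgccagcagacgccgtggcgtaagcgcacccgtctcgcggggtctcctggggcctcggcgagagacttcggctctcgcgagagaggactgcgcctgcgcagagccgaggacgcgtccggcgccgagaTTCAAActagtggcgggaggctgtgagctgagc
CENPT: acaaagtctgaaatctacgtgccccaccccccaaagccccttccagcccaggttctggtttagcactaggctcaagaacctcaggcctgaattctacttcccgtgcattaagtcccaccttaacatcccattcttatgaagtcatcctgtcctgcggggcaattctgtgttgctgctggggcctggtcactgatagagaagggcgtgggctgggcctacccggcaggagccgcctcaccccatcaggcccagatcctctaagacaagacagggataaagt

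Both CENPA and HJURP held the CHR letters TTTGAA and the CCAAT letters. Relative to the start, the CHR letters began at position -18 in CENPA and -111 in HJURP. In SKA3 they read on the other strand and began at position -3, and no CCAAT stood in that window. The CENPT window held none of the letters searched. Windows that also hold the next bases, up to 50 after the start, were at hand for 31 of the 37 genes, 36 windows in all since some genes have several starts, and none was used for KNTC1, CENPH, MIS18A, CENPL, CASC5 and CENPM. The CHR letters, on either strand, stood in 38.9% of these 36 windows, for 13 genes, against 15.2% of the 35116 windows of all genes. CCAAT stood in 63.9% of the 36 windows, for 20 genes, against 34.6% of all windows. CHR and CCAAT stood together in 25.0% of the 36 windows, against 5.90% of all windows. An E2F site, taken as TTTGGCGC, TTTGCCGC, TTTCGCGC or TTTCCCGC, was found for CENPA, MLF1IP, MIS12 and OIP5, in 13.9% of the 36 windows against 3.31% of all. GGAAGGAA, a pair of the GGAA cores that EWS-FLI1 is known to bind, was found for CENPP, in 2.78% of the 36 windows against 3.67% of all. No match of one motif overlapped a match of another, and a match shows letters only, not binding.

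The deposited FPKM of the libraries stood on different scales, so each library was multiplied by a single factor: 1.44 for knockdown, 2.12 for YK and 0.325 for control. Values below are scaled FPKM unless called deposited, and a ratio is the difference of log2(scaled FPKM + 1), which understates the change of scarce genes. "Higher" and "lower" are used of ratios of at least 1 in size, a 2-fold difference, and describe these 3 libraries, since no library has a replicate, no test was possible and the group cannot be told apart from the single preparation behind it. Standard errors (SE) cover counting error only and are approximate. FLI1, whose 3′ part is in the fusion transcript, stood at 2.13 in knockdown, 17.6 with YK and 21.4 in control. Of the Ewing sarcoma markers, 5 of 6 compared were lower in knockdown, where 17% of all compared names were, and none with YK. CD99, a defining marker, was listed at 0 in every library. Of 5 fibroblast markers, 4 were higher in knockdown, where 17.3% of all compared names were, and 1, DCN, was lower. The summed level of the 5 was 57.9 in knockdown, 24.4 with YK and 26.5 in control. Endothelial and epithelial markers summed to under 2 in every library. Of the leukocyte markers, CD3E was listed at 0 throughout, PTPRC stayed under 1, and CD68, which other cells also express, stood at 26.3 in knockdown, 13.8 with YK and 19.9 in control. The part of these differences in the kinetochore results was not tested.

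The kinetochore genes as a group stood low in the knockdown library and near control with YK. In knockdown against control, 21 of the 36 compared genes were lower, where 17% of all compared names were, and 1 was higher, where 17.3% of all were. The median ratio of the 36 genes was -1.10, against 0.0064 over all compared names, and 34 of the 36 lay below 0. Summed over the 37 genes, the level was 317 in knockdown, 826 with YK and 946 in control. In such bulk RNA, fewer cells in the phases that express a gene and less of its RNA per cell cannot be told apart. The count of lower genes was 9 when libraries were scaled on the more abundant genes, those above the median level, where 5.52% of all names were lower, and 32 with scaling on all named genes, where 33.8% were. It was 12, where 11.2% of all names were lower, when 5 rather than 1 was added before the logarithm.

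**Figure D1:**
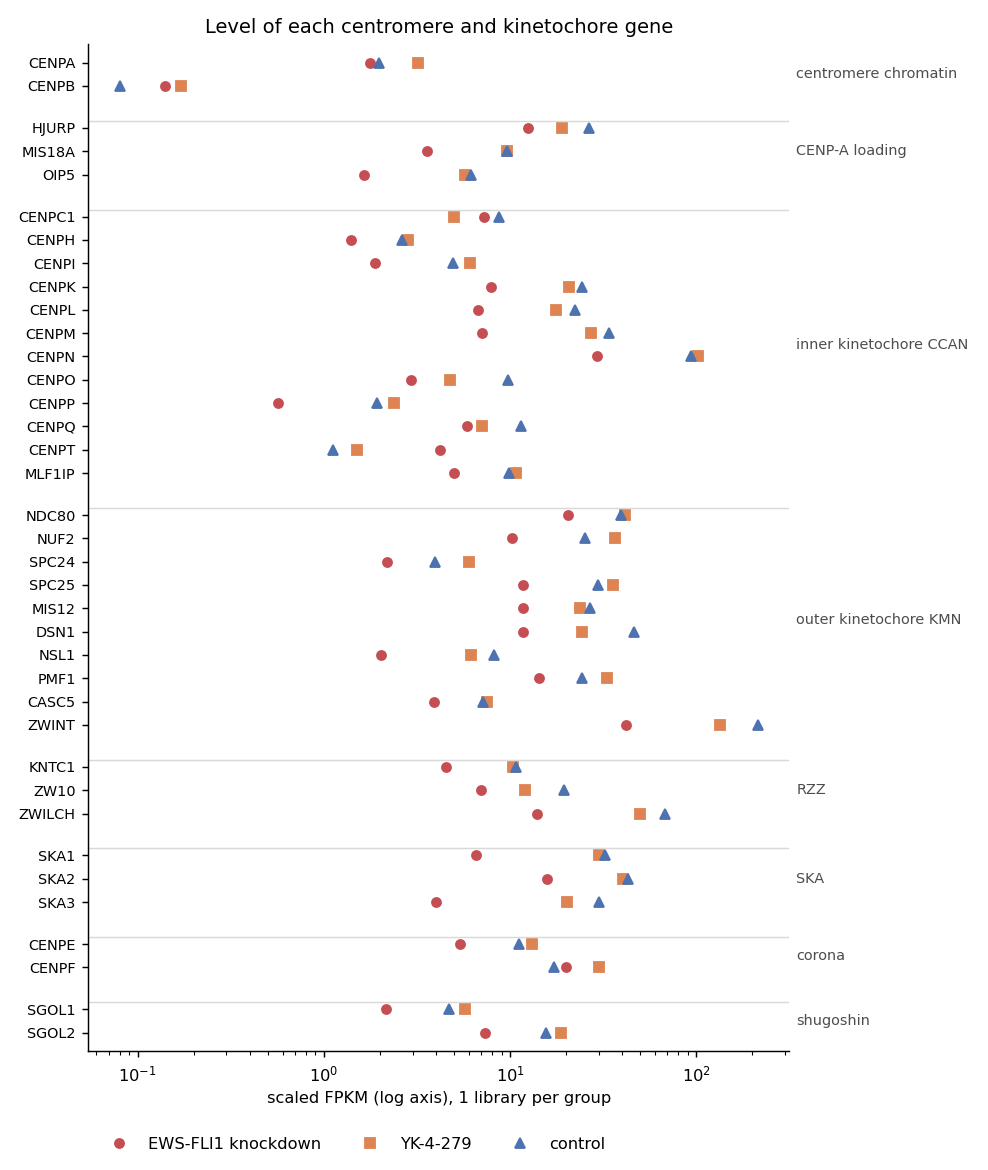
Scaled FPKM on a log axis for each of the 37 genes, grouped by role, in the knockdown, YK and control libraries, 1 point per library. Most knockdown points lie to the left of the other points of the same gene; CENPT, CENPF and CENPC1 are exceptions, and CENPB lies near 0.1 in every library.

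The ratio of knockdown to control declined with the level of a gene across the whole transcriptome, which bears on every value here. When the compared names were split into 5 bins of equal size by their level in YK, the library this ratio does not use, the median ratio of knockdown to control was 0.65, 0.46, 0.11, -0.47 and -0.96 in ascending order of level. The share called lower ran from 1.26% in the scarcest bin to 47.5% in the most abundant. When each ratio was centred on the median of its bin, called level-centred below, 14 of the 36 genes were past 2-fold on the lower side, against 9.1% of all names, and the median of the 36 was -0.80. Of the 21 genes called lower, 12 were past 2-fold after this centring too. SKA3 at -2.18, NSL1 at -1.72, CENPO at -1.56 and OIP5 at -1.55 were the lowest of these centred values. CENPF stood at 1.16 and CENPT at 0.65, while NDC80 at 0.04 and PMF1 at 0.23 lay near genes of like level. Between YK and control the bins, split by level in knockdown, had medians from -0.03 to 0.08.

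**Figure D2:**
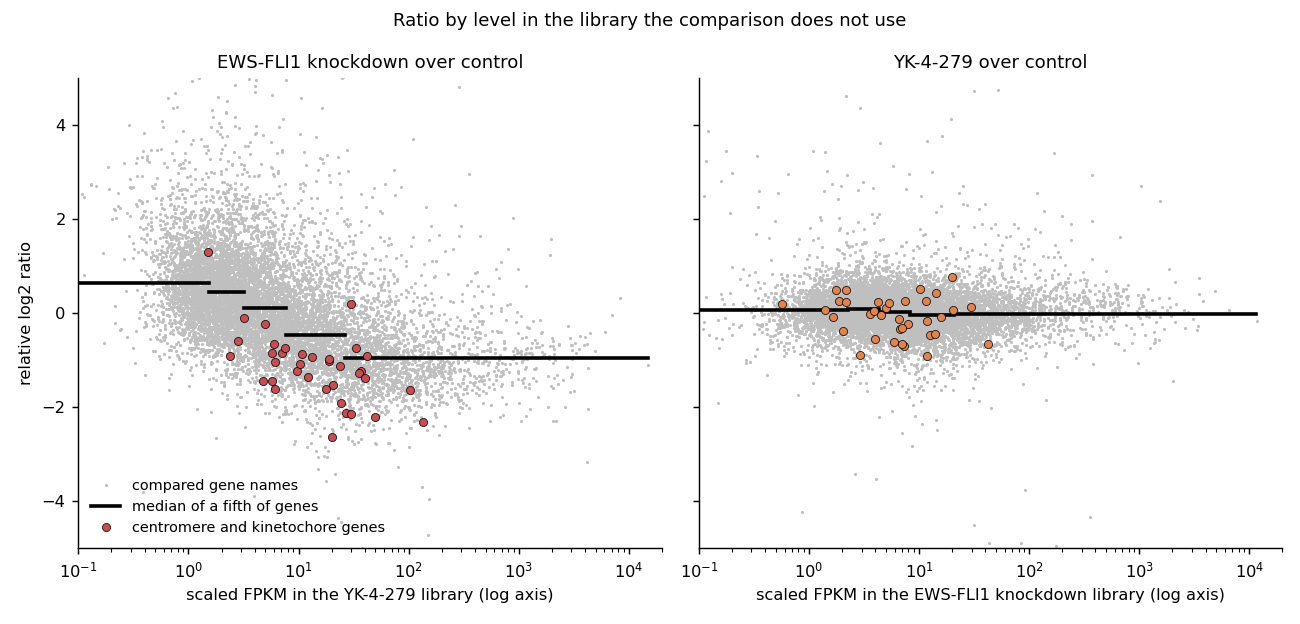
Relative log2 ratio against scaled FPKM in the library the ratio does not use (log axis), for knockdown over control on the left and YK over control on the right. Grey points are all compared names, black lines are medians of 5 bins of genes by level and coloured points are the 36 genes; on the left the lines step down from 0.65 to -0.96 and most coloured points lie below them.

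Of the genes of centromere chromatin, 1 could be compared. CENPA, the centromeric histone, stood at 1.77 in knockdown, 3.21 with YK and 1.97 in control, with a ratio to control of -0.10 (SE 0.12) in knockdown and 0.50 (SE 0.12) with YK. Its highest level was with YK, 1.52-fold above knockdown in scaled FPKM + 1, and no difference reached 2-fold. The knockdown ratio of CENPA turned to 0.31 with scaling on the more abundant genes and 0.09 when deposited ratios were centred on their median. Level-centred, the knockdown value of CENPA was -0.56, like that of HJURP. CENPB, which binds a short motif in alpha satellite DNA, stood at 0.141 in knockdown, 0.171 with YK and 0.0807 in control. That rested on about 16 estimated fragments in knockdown, 17 with YK and 12 in control, and it was the 1 gene below the filter.

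The genes that load CENP-A onto chromatin were all lower in knockdown, 3 of 3, where 17% of all compared names were. Their median ratio was -1.22. Level-centred, the median was -0.76 and OIP5 alone of the 3 was past 2-fold, at -1.55, with MIS18A at -0.76 and HJURP at -0.56. HJURP, the chaperone of CENP-A, stood at 12.5 in knockdown, 19.1 with YK and 26.5 in control. MIS18A, a subunit of the Mis18 complex that licenses centromeres for loading, stood at 3.57 in knockdown, 9.61 with YK and 9.66 in control. OIP5, its partner subunit Mis18-beta, stood at 1.64 in knockdown, 5.71 with YK and 6.13 in control. All 3 were lowest in knockdown and highest in control, and with YK MIS18A and OIP5 lay near control and HJURP further below it. The ratio of knockdown to control was -1.02 (SE 0.04) for HJURP, -1.22 (SE 0.09) for MIS18A and -1.44 (SE 0.14) for OIP5, and that of YK to control was -0.45 (SE 0.04), -0.01 (SE 0.07) and -0.09 (SE 0.12) for the same genes. OIP5 lies beside the antisense gene OIP5-AS1, which stood at 9.37 in knockdown, 18.4 with YK and 22.6 in control, and reads of such a pair cannot be told apart if strand was not used in counting.

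In the inner kinetochore, 6 of 12 genes were lower in knockdown and 1 was higher, where 17% and 17.3% of all compared names were. The median ratio was -0.98. Level-centred, the median was -1.05, and 5 of the 6 were past 2-fold, CENPN at -0.68 being the exception. CENPP at -1.36 and CENPH at -1.05, not called lower before centring, were past 2-fold after it. That made 7 of the 12, against 9.1% of all names. CENPN, which reads CENP-A nucleosomes, was the most abundant, at 29.4 in knockdown, 103 with YK and 93.6 in control. Its partner CENPL stood at 6.70 in knockdown, 17.6 with YK and 22.4 in control. Both were lowest in knockdown, at -1.64 (SE 0.04) for CENPN and -1.61 (SE 0.06) for CENPL against control, and YK differed from control by 0.13 for CENPN and -0.33 for CENPL.

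CENPH, CENPI, CENPK and CENPM form a subcomplex that links the inner proteins to one another. CENPM had the lowest knockdown ratio of the inner kinetochore, at 7.04 in knockdown against 27.1 with YK and 33.8 in control, a ratio of -2.11 (SE 0.09). CENPK stood at 7.88 in knockdown, 20.8 with YK and 24.5 in control, a knockdown ratio of -1.52 (SE 0.06). CENPI stood at 1.88 in knockdown, 6.13 with YK and 4.94 in control, a knockdown ratio of -1.05 (SE 0.09). CENPH was the scarcest of this subcomplex and did not reach 2-fold before centring. Its levels were 1.39 in knockdown, 2.82 with YK and 2.62 in control, a knockdown ratio of -0.60 (SE 0.12). Level-centred, CENPH was past 2-fold at -1.05. With YK the ratios to control were -0.31 for CENPM, -0.22 for CENPK, 0.26 for CENPI and 0.08 for CENPH, all within 2-fold.

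CENPO, CENPP, CENPQ and MLF1IP belong to another subcomplex, whose member CENP-U, the product of MLF1IP, is known as a docking site of the mitotic kinase PLK1. CENPO stood at 2.92 in knockdown, 4.79 with YK and 9.72 in control, with ratios to control of -1.45 (SE 0.06) in knockdown and -0.89 (SE 0.05) with YK. It was thus low in both treated libraries against the control they share. CENPQ stood at 5.88 in knockdown, 7.11 with YK and 11.4 in control, and showed a like order at ratios to control of -0.86 in knockdown and -0.62 with YK. CENPP stood at 0.564 in knockdown, 2.38 with YK and 1.93 in control, and MLF1IP at 5.02 in knockdown, 10.7 with YK and 9.92 in control. Both had their lowest value in knockdown, with ratios to control of -0.91 for CENPP and -0.86 for MLF1IP, short of 2-fold. Level-centred, CENPP at -1.36 was past 2-fold and MLF1IP at -0.39 was not.

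CENPC1 and CENPT are the arms that connect the inner to the outer kinetochore. CENPC1, which binds CENP-A chromatin and the MIS12 complex, stood at 7.24 in knockdown, 4.99 with YK and 8.69 in control. Its lowest value was with YK, at a ratio to control of -0.69 (SE 0.04), against -0.23 (SE 0.04) in knockdown. The direction of CENPC1 in knockdown depended on scaling, at 0.33 with scaling on the more abundant genes. CENPT, which binds DNA with other histone-fold proteins and recruits NDC80, stood at 4.20 in knockdown, 1.51 with YK and 1.12 in control. It was the only one of the 36 genes that was higher in knockdown, at 1.29 (SE 0.09). Level-centred, CENPT was at 0.65, short of 2-fold. On deposited FPKM its ratio was -0.18, with 2.92 in knockdown, 0.712 with YK and 3.45 in control. Its ratio of YK to control was 0.24 (SE 0.10).

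The outer kinetochore held 6 lower genes of 10 in knockdown and none higher, where 17% and 17.3% of all compared names were. The median ratio was -1.17. Level-centred, the median was -0.71, and 3 of the 6, ZWINT, DSN1 and NSL1, were past 2-fold, at -1.35, -1.44 and -1.72. ZWINT, which binds KNL1 and helps recruit the RZZ complex, was the most abundant of all 37 genes, at 42.1 in knockdown, 134 with YK and 213 in control. It had the lowest ratio of this role group in knockdown, -2.31 (SE 0.03), and stood at -0.66 (SE 0.02) with YK. CASC5, whose product KNL1 is the scaffold for the BUB checkpoint proteins, stood at 3.90 in knockdown, 7.49 with YK and 7.17 in control, a knockdown ratio of -0.74.

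The NDC80 complex is the main coupler to microtubules. NDC80 stood at 20.4 in knockdown, 41.5 with YK and 39.3 in control, and its partner NUF2 at 10.3 in knockdown, 36.7 with YK and 25.3 in control. SPC25 stood at 11.7 in knockdown, 35.6 with YK and 29.7 in control, and its partner SPC24 at 2.18 in knockdown, 6.01 with YK and 3.97 in control. All 4 subunits were lowest in knockdown. The ratio of knockdown to control was -1.22 (SE 0.05) for NUF2 and -1.28 (SE 0.06) for SPC25, past 2-fold, and -0.92 (SE 0.04) for NDC80 and -0.65 (SE 0.14) for SPC24, short of it. Level-centred, NUF2 at -0.26 and SPC25 at -0.31 were not past 2-fold either. With YK the ratios to control ran from 0.07 for NDC80 to 0.52 for NUF2, and centring the deposited ratios turned NDC80 to -0.37 and SPC25 to -0.17, as scaling on all named genes did to -0.43 for NDC80 and -0.25 for SPC25.

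The MIS12 complex joins NDC80 and KNL1 to the inner kinetochore. DSN1, its subunit that Aurora B phosphorylates, stood at 11.7 in knockdown, 24.3 with YK and 46.5 in control. MIS12 stood at 11.8 in knockdown, 23.7 with YK and 26.8 in control, and NSL1 at 2.03 in knockdown, 6.14 with YK and 8.24 in control. All 3 were lower in knockdown, by ratios of -1.90 (SE 0.05) for DSN1, -1.12 (SE 0.05) for MIS12 and -1.61 (SE 0.14) for NSL1, and the level-centred value of MIS12 was -0.66. DSN1 also had the lowest ratio to control of all 36 genes with YK, -0.91 (SE 0.04), while MIS12 was at -0.17 and NSL1 at -0.37. PMF1 stood at 14.3 in knockdown, 33.4 with YK and 24.3 in control, a knockdown ratio of -0.73 (SE 0.07). Its row in the files also holds BGLAP and a read-through transcript, whose shares cannot be separated.

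The RZZ complex recruits dynein and the checkpoint proteins MAD1 and MAD2 to kinetochores without microtubules. All 3 subunits were lower in knockdown, where 17% of all compared names were, with a median ratio of -1.36. Level-centred, the median was -0.90, and ZWILCH was past 2-fold at -1.24, with ZW10 at -0.90 and KNTC1 at -0.62 short of it. ZWILCH stood at 13.9 in knockdown, 49.6 with YK and 67.6 in control. KNTC1, which encodes ROD, stood at 4.54 in knockdown, 10.4 with YK and 10.7 in control. ZW10 stood at 7.01 in knockdown, 12.1 with YK and 19.6 in control. All 3 were lowest in knockdown, at -2.20 (SE 0.03) for ZWILCH, -1.08 (SE 0.04) for KNTC1 and -1.36 (SE 0.05) for ZW10. With YK, ZW10 at -0.66 and ZWILCH at -0.44 lay below control and KNTC1 at -0.05 near it.

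The SKA complex, which keeps the NDC80 complex attached to shortening microtubule ends, had the lowest median of the role groups in knockdown, -2.15. Level-centred, the median was -1.19, and SKA3 at -2.18 and SKA1 at -1.19 were past 2-fold while SKA2 was at -0.42. SKA3 stood at 3.99 in knockdown, 20.2 with YK and 30.1 in control. SKA1, the subunit that binds microtubules, stood at 6.54 in knockdown, 29.96 with YK and 32.5 in control. SKA2 stood at 15.7 in knockdown, 40.5 with YK and 42.8 in control. SKA3 had the lowest knockdown ratio of the 36 genes, -2.64 (SE 0.06), a 6.24-fold difference of scaled FPKM + 1, followed within the complex by SKA1 at -2.15 (SE 0.05) and SKA2 at -1.39 (SE 0.05). With YK the ratio to control was -0.55 (SE 0.04) for SKA3, -0.11 for SKA1 and -0.07 for SKA2.

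The corona, the outermost fibrous layer, held no gene past 2-fold in knockdown before centring. Level-centred, CENPF at 1.16 was past 2-fold and CENPE at -0.47 was not. CENPF was the 1 gene of the 36 higher after centring, where 14% of all names were. CENPF, a large protein of the nuclear matrix and corona, stood at 19.9 in knockdown, 29.9 with YK and 17.2 in control. CENPE, the kinesin that carries chromosomes along microtubules, stood at 5.35 in knockdown, 13.1 with YK and 11.2 in control. CENPF was thus lowest in control and CENPE lowest in knockdown. The ratios to control of CENPF were 0.20 (SE 0.02) in knockdown and 0.76 (SE 0.02) with YK, the highest of the 36 genes with the compound. Those of CENPE were -0.94 (SE 0.03) in knockdown and 0.21 (SE 0.03) with YK. Centring the deposited ratios turned the YK ratio of CENPE to -0.10. CENPF made up most of the corona sum, and corona genes took 7.98% of the summed level of the 37 genes in knockdown, 5.21% with YK and 3.00% in control. The direction for CENPF in knockdown depended on scaling, at 0.80 with scaling on the more abundant genes, those above the median level, and -0.43 with scaling on all named genes.

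The shugoshins, which shield cohesin at the centromere until anaphase, lay short of 2-fold in knockdown. SGOL1 stood at 2.16 in knockdown, 5.71 with YK and 4.72 in control, and SGOL2 at 7.38 in knockdown, 18.8 with YK and 15.5 in control. Both were lowest in knockdown, at ratios to control of -0.86 (SE 0.10) for SGOL1 and -0.98 (SE 0.04) for SGOL2, and with YK stood at 0.23 for SGOL1 and 0.26 for SGOL2, where centring the deposited ratios turned SGOL2 to -0.10 and scaling on all named genes turned SGOL1 to -0.21 and SGOL2 to -0.23. The antisense gene SGOL1-AS1 stood at 0.79 in knockdown, 4.05 with YK and 2.71 in control, and the same limit on strand applies.

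**Figure D3:**
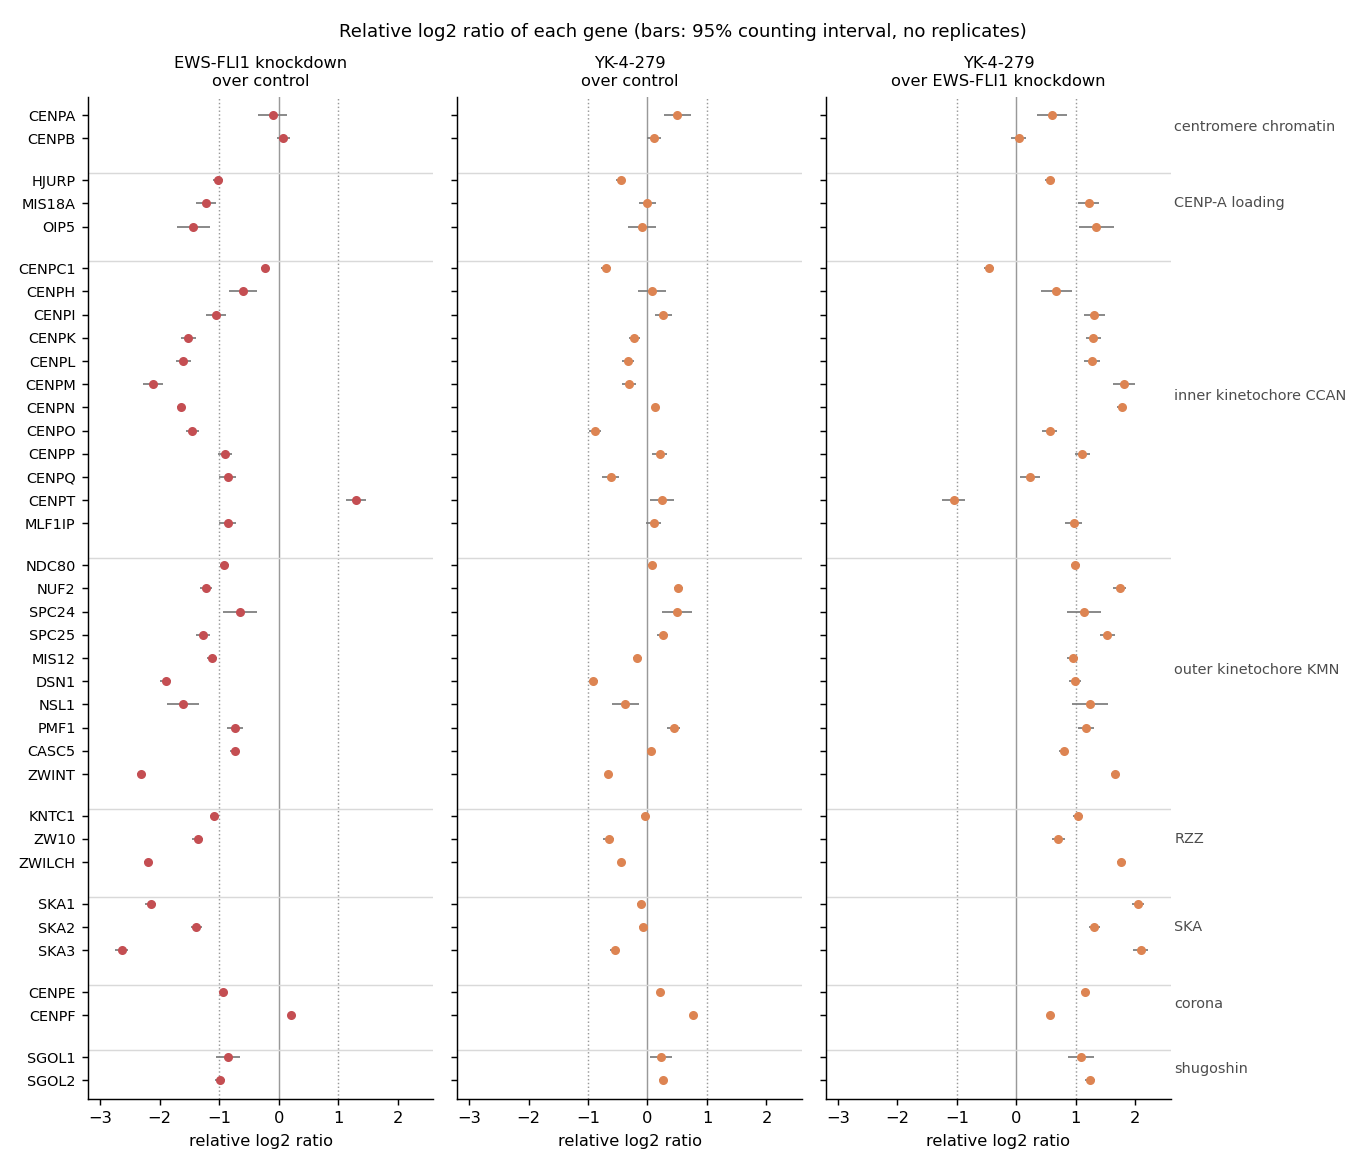
Relative log2 ratio of each of the 37 genes, grouped by role, for knockdown over control, YK over control and YK over knockdown, with bars for the 95% counting interval only and no replicates. CENPB, which was below the filter and not compared, is drawn too. In the knockdown panel 21 genes lie at or below -1, in the YK panel all lie between -1 and 1, and in the last panel 22 lie at or above 1.

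With YK, none of the 36 genes was 2-fold lower or higher than control, where 1.69% of all compared names were lower and 2.41% were higher. The median ratio was -0.03, against 0.03 over all names, with 17 genes above 0 and 19 below. Some of these directions depended on scaling. Centring the deposited ratios turned CENPN from 0.13 to -0.35, MLF1IP from 0.10 to -0.18 and CASC5 from 0.06 to -0.14. At a threshold of 1.5-fold, chosen after the values were seen, 6 genes were lower, where 7.07% of all names were, and 1 was higher, where 8.28% of all were. The 6 were DSN1, CENPO, CENPC1, ZWINT, ZW10 and CENPQ, at -0.91, -0.89, -0.69, -0.66, -0.66 and -0.62, and the 1 higher was CENPF. At the same 1.5-fold, 32 of the 36 were lower in knockdown, where 29.5% of all names were. In deposited FPKM, before scaling, 35 of the 36 were 2-fold lower in knockdown, where 71.4% of all names were, and 36 of 36 with YK, where 92.2% of all were.

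Set directly against each other, 22 of the 36 genes were higher with YK than in knockdown, where 15.3% of all names were, and 1, CENPT, was lower, where 14.5% of all were. The median ratio of YK to knockdown was 1.15, against -0.01 over all names. Before centring, the widest gaps were those of SKA3 at 2.09 (SE 0.06), SKA1 at 2.04 (SE 0.05), CENPM at 1.804 (SE 0.09), CENPN at 1.77 (SE 0.04) and ZWILCH at 1.77 (SE 0.04). CENPC1 at -0.46 (SE 0.04) and CENPT at -1.05 (SE 0.10) were the only ones of the 36 below 0 with this scaling. This ratio rose with level, with medians from -0.58 to 0.91 over bins of level in control. Names called higher ran from 2.77% in the scarcest bin to 43.9% in the most abundant. After centring on these bins, 9 of the 36 genes were higher, against 7.91% of all names, and 8 of these were among the 22. The widest were then OIP5 at 1.46, CENPP at 1.45, CENPI at 1.42 and NUF2 at 1.40. SKA3 at 1.18 and SKA1 at 1.13 were past 2-fold. CENPM at 0.90, CENPN at 0.86, ZWILCH at 0.86 and CENPT at -0.47 were not. The length of the knockdown is not given and the compound acted for 15 hours, so the agent and the time of exposure cannot be told apart.

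Within the complexes the subunits did not stand at one level, and the spread differed between libraries. In the SKA complex the highest subunit, SKA2, exceeded the lowest, SKA3, by 3.94-fold in knockdown, 2.003-fold with YK and 1.42-fold in control. In the RZZ complex the highest, ZWILCH, exceeded the lowest, KNTC1, by 3.06-fold in knockdown, 4.79-fold with YK and 6.29-fold in control. The spread thus widened in knockdown for SKA and narrowed for RZZ. In the NDC80 complex NDC80 exceeded SPC24 by 9.35-fold in knockdown, 6.90-fold with YK and 9.90-fold in control. CENPN exceeded CENPL by 4.39-fold in knockdown, 5.82-fold with YK and 4.17-fold in control. In the MIS12 complex the highest exceeded the lowest by 7.02-fold in knockdown, 5.43-fold with YK and 5.65-fold in control. Among CENPH, CENPI, CENPK and CENPM it was 5.66-fold, 9.60-fold and 12.9-fold in the same order. Among CENPO, CENPP, CENPQ and MLF1IP it was 10.4-fold, 4.51-fold and 5.92-fold. The part of the trend with level in these spreads was not tested. The order of the 37 genes by level was largely kept, with a Spearman rho of 0.86 between knockdown and control, 0.94 between YK and control and 0.88 between YK and knockdown, over genes that share each library's depth and transcript lengths.

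Genes with and without the promoter letters overlapped in their ratios. Of the 13 compared genes with the CHR letters, 9 were lower in knockdown, with a median ratio of -1.28 and a range from -2.64 for SKA3 to 0.20 for CENPF. Of the 17 without them, 8 were lower and 1, CENPT, was higher, with a median of -0.98. Of all compared names, 17% were lower and 17.3% higher. These counts and medians are uncentred. Level-centred, 5 of the 9 with CHR were short of 2-fold: HJURP at -0.56, CENPN at -0.68, NUF2 at -0.26, SPC25 at -0.31 and ZW10 at -0.90. Of the 8 without CHR, MIS12 at -0.66 and SKA2 at -0.42 were short of it. The 20 genes with CCAAT had a median of -1.003 in knockdown, with 10 lower, and the 10 without had a median of -1.33, with 7 lower. The printed CENPA window held CHR, CCAAT and E2F letters beside a knockdown ratio of -0.10, and the SKA3 window held CHR alone beside -2.64. Level-centred, CENPA was at -0.56 and SKA3 at -2.18.

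Genes that work beside the kinetochore were taken from lists of neighbouring pathways. Of all compared names, 17% were lower and 17.3% higher in knockdown, and 1.69% were lower and 2.41% higher with YK. After centring on level, 9.1% were past 2-fold on the lower side in knockdown and 14% on the higher. Of 7 further centromere genes, 4 were lower in knockdown, with a median ratio of -1.16, and none with YK, with a median of 0.03. The level-centred median in knockdown was -0.26, and APITD1 at -1.38 was the 1 past 2-fold, with ITGB3BP at -0.69, STRA13 at -0.26 and CENPW at -0.20. The 4 lower genes were APITD1 and STRA13, histone-fold partners of CENP-T now named CENPS and CENPX, with ratios of -1.85 and -1.22, ITGB3BP, or CENP-R, at -1.65 (SE 0.07), and CENPW at -1.16 (SE 0.04). CENPW binds CENP-T directly and stood at 77.0 in knockdown, 257 with YK and 172.96 in control. Before centring it was thus low where CENPT was high. Level-centred, CENPW at -0.20 and CENPT at 0.65 were both short of 2-fold. CENPBD1 had the highest ratio of the list, 0.73 (SE 0.07). The row of APITD1 also holds CORT and a read-through transcript.

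The chromosomal passenger complex, which corrects faulty attachments, was lower in knockdown in 4 of 4 genes, where 17% of all names were. None of the 4 was lower with YK. The median ratios were -2.003 in knockdown and -0.26 with YK. The level-centred median in knockdown was -1.28, with 3 of the 4 past 2-fold and CDCA8 at -0.91. AURKB, its kinase, stood at 24.8 in knockdown, 95.4 with YK and 151 in control. BIRC5, or survivin, stood at 64.5 in knockdown, 284 with YK and 286 in control. The knockdown ratios were -2.56 (SE 0.04) for AURKB, -2.13 (SE 0.02) for BIRC5, -1.87 (SE 0.03) for CDCA8, which encodes borealin, and -1.28 (SE 0.07) for INCENP, the scaffold. With YK, AURKB at -0.65 had the lowest ratio and BIRC5 at -0.01 the highest of this complex.

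The spindle checkpoint had 5 of 9 genes lower in knockdown, where 17% of all names were, and none past 2-fold with YK. The median ratios were -1.02 in knockdown and 0.22 with YK. The level-centred median in knockdown was -0.37, and of the 5 MAD2L1 at -1.25 was past 2-fold while BUB1, TTK, BUB3 and MAD2L1BP lay between -0.45 and -0.06. MAD2L1, the MAD2 protein that holds back the anaphase-promoting complex, stood at 31.9 in knockdown, 176 with YK and 151 in control, a knockdown ratio of -2.21 (SE 0.02). BUB1 at -1.41, TTK, the MPS1 kinase, at -1.33, BUB3 at -1.21 and MAD2L1BP at -1.02 were also lower, and MAD1L1 at -0.30 was the highest of the list. CDC20, the target of the checkpoint, stood at 14.8 in knockdown, 50.1 with YK and 29.5 in control, and was the highest of the list with YK, at 0.74 (SE 0.04). Against knockdown, 6 of the 9 were higher with YK, where 15.3% of all names were.

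Of 6 genes for kinetochore motors and the recruitment of dynein, 3 were lower in knockdown, where 17% of all names were. None of the 6 was lower with YK. The median ratios were -1.03 in knockdown and 0.07 with YK. The level-centred median in knockdown was -0.34 and none was past 2-fold, with KIF2C at -0.64, PLK1 at -0.19 and SPDL1 at -0.14. The 3 lower genes were KIF2C, a kinesin that takes microtubule ends apart, at -1.61 (SE 0.03), the kinase PLK1 at -1.15 (SE 0.05), and SPDL1, an adaptor of dynein, at -1.10 (SE 0.04). PLK1 stood at 12.1 in knockdown, 45.2 with YK and 28.1 in control, the highest ratio of the list with YK at 0.66. KIF18A was past 2-fold between YK and knockdown, at 1.07, and NDE1 at 0.24 had the highest knockdown ratio.

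Cohesin and separase genes had a median nearer 0 in knockdown. Of 13, 2 were lower in knockdown, close to the 17% of all compared names. With YK, 1 was lower, where 1.69% of all were. The median ratios were -0.36 in knockdown and -0.11 with YK. The level-centred median in knockdown was 0.02, and neither PTTG1 at -0.17 nor CDCA5 at -0.64 was past 2-fold. PTTG1, or securin, the inhibitor of separase, stood at 161 in knockdown, 619.8 with YK and 354 in control, with ratios to control of -1.13 (SE 0.02) in knockdown and 0.80 (SE 0.02) with YK. CDCA5, or sororin, which stabilises cohesin on replicated chromosomes, stood at 8.48 in knockdown, 8.68 with YK and 19.4 in control. It was lower in both treated libraries, at -1.11 (SE 0.05) in knockdown and -1.08 (SE 0.05) with YK, against the control they share. NIPBL, the cohesin loader, had the highest knockdown ratio, 0.79.

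Of 10 compared transcription factors of the late cell cycle, 2 were lower and 1 higher in knockdown. Of all compared names, 17% were lower and 17.3% higher. None of the 10 was past 2-fold with YK. The median ratios were -0.06 in knockdown and 0.14 with YK. Level-centred, LIN9 at -0.99, TFDP1 at -0.07 and RBL2 at 0.91 were short of 2-fold in knockdown, and LIN37 at 1.75 was past it. LIN9, a core subunit of the complexes that bind CHR promoters, stood at 2.604 in knockdown, 12.3 with YK and 8.86 in control, a knockdown ratio of -1.45 (SE 0.07). TFDP1, the partner of E2F factors, had a knockdown ratio of -1.03 (SE 0.04). RBL2, the p130 protein of the repressive form of these complexes, was higher, at 7.28 in knockdown, 2.81 with YK and 2.22 in control, a knockdown ratio of 1.36 (SE 0.05). The 7 other compared factors were short of 2-fold in knockdown. Their ratios were -0.09 for LIN54, -0.28 for LIN52, 0.78 for LIN37, 0.05 for FOXM1, -0.33 for MYBL2, -0.03 for E2F4 and 0.09 for RBL1. With YK the lowest ratio was that of E2F4, -0.92, and the highest that of LIN37, 0.65, whose row also holds PSENEN. E2F1 was below the filter, at 0.305 in knockdown, 0.193 with YK and 0.186 in control.

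General markers of proliferation did not move as one in knockdown. PCNA, the replication clamp, stood at 38.7 in knockdown, 109.7 with YK and 138 in control, a knockdown ratio of -1.81 (SE 0.03). TOP2A stood at 36.5 in knockdown, 94.3 with YK and 73.9 in control, a knockdown ratio of -0.999, just short of the threshold. MKI67, the Ki-67 antigen, stood at 7.75 in knockdown, 8.90 with YK and 6.67 in control, a knockdown ratio of 0.19 (SE 0.03). Level-centred, PCNA was at -0.85, TOP2A at -0.04 and MKI67 at 0.66, beside the median of -0.80 of the kinetochore genes. The part of proliferation in that median was not tested.

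**Figure D4:**
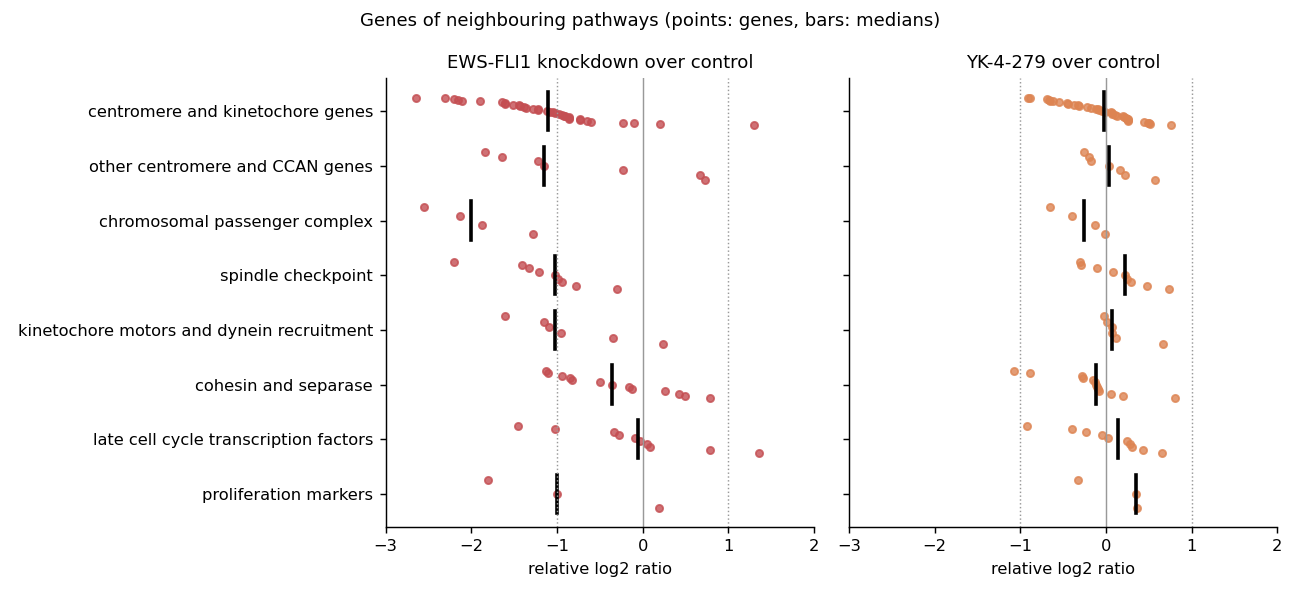
Relative log2 ratio of the genes of neighbouring pathways, for knockdown over control on the left and YK over control on the right, with 1 point per gene, black bars for medians and dotted lines at 2-fold. In knockdown the chromosomal passenger complex has the lowest median, -2.003, and the late cell cycle transcription factors lie around 0, at -0.06; with YK the medians of all lists lie between -0.26 and 0.35.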

How the data were processed

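Total RNA was turned into cDNA with a SMARTer kit, sheared and amplified by PCR, per the labels' protocols. The authors deposited FPKM for 88434 loci in each of 3 libraries. CASAVA 1.8.2, TopHat, Cufflinks 2.2.1 and build GRCh37 (hg19) are named per the submitters' processing notes. Not given in the sources used here are the annotation, any scaling between libraries, the strand setting and the treatment of multiply mapped reads.

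Loci of 1 gene name were summed (SGOL1 lay on 2 loci), giving 22714 names from 24751 named loci, and 63683 unnamed loci were left out. Names with a mean FPKM of at least 1 were compared. For each of the 9883 compared names above 0 in every library, the value was divided by that name's geometric mean, and a library's scale factor is the inverse of its median quotient. The factors use compared names only, and use of all named genes is an alternative. The choice assumes that the median gene did not differ, so a shift of all RNA at once was not visible. Ratios are differences of log2(scaled FPKM + 1), called at 1.

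Fragments were estimated from the lowest 25% of values of olfactory receptor genes and from GENCODE release 29 transcript lengths, of build GRCh38, which 84.8% of compared names had. This gave about 21463319 fragments in knockdown, 25484513 with YK and 38665659 in control over those names. The plain definition of FPKM gives 58396545 mapped fragments in knockdown, 76281037 with YK and 16986210 in control, another order of depths, so these depths, and the standard errors from them, are rough.

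With 1 library per group no test was made. The genes, lists and alternatives were chosen with earlier results of these data known. All 37 genes are accounted for, and those past 2-fold in any comparison or highest or lowest in a role group are given in every library. Of the neighbouring pathway lists, the genes past 2-fold and the highest and lowest are named, and the cell type markers are given by counts and sums. Steps were tested on simulated data. Python 3.11.15, numpy 2.4.6, pandas 2.3.3 and matplotlib 3.10.9 were used.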

Additional observations from a re-analysis of the deposited data

How the results depend on the processing

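No paired analysis was possible because each group was 1 library and the labels carry no replicate numbers, and for the same reason no library could be left out. For knockdown against control, scaling moved the median of all compared names by more than 0.1 on the log2 scale. That median was -1.75 on deposited FPKM, 0.49 with scaling on the more abundant genes, those above the median level, and -0.50 with scaling on all named genes, an alternative added after the data were seen. Relative to it the median of the 36 genes was -1.36, -1.09 and -1.21, beside -1.11 with the scaling used.

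On deposited FPKM, 0 genes were higher and 35 lower in knockdown (median -3.12; 71.4% of all names lower), 36 were lower with YK (median -2.54; 92.2% of all), and 7 were higher with YK than in knockdown (median 0.61; 5.08% of all); CENPT turned to -0.18 in knockdown. Deposited ratios centred on their median gave medians of -1.36, -0.34 and 0.98 for knockdown to control, YK to control and YK to knockdown, with 3 genes lower in the second (4.49% of all) and 0 lower in the third. Scaling on the more abundant genes gave 9 lower in knockdown (median -0.59; 5.52% of all), a median of 0.071 with YK, and 8 higher than knockdown (median 0.73; 6.46% of all). Centring on bins of level gave a knockdown median of -0.80, and 9 higher (7.91% of all) and 0 lower for YK against knockdown (median 0.86). A pseudocount of 0.1 gave a median of -1.31 in knockdown, 1 gene lower with YK (2.90% of all) and a median of 1.35 against knockdown. A pseudocount of 5 gave 0 higher and 12 lower in knockdown (median -0.79; 11.2% of all lower), and 10 higher (10.2% of all) and 0 lower for YK against knockdown (median 0.73). A mean FPKM of at least 5 left 0 higher in knockdown (11.2% of all) and 0 lower for YK against knockdown (11.1% of all). With that filter 21 of 32 genes were lower in knockdown, where 27.3% of all 5901 names were. The knockdown median was -1.22, beside -0.47 over all those names. The difference of these medians was -0.75, beside -1.11 with the main filter. Scaling on all named genes gave 0 higher and 32 lower in knockdown (median -1.71; 33.8% of all lower), 7 lower with YK (median -0.50; 8.18% of all) and 0 lower for YK against knockdown. At 1.5-fold, also added, 32 were lower in knockdown (29.5% of all), and 6 were lower (7.07%) and 1 higher (8.28%) with YK. Names higher in knockdown were 3.03% of all on deposited FPKM, 6.65% with a pseudocount of 5 and 9.17% with scaling on all named genes. For YK against knockdown, names lower were 11.9% of all with centred deposited ratios and 12.6% with bins of level. They were 5.7% with a pseudocount of 5 and 11.7% with scaling on all named genes. The cause of the shifts between settings was not tested.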
